A study of Arabidopsis thaliana with 9 samples.

Results

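CUC1, CUC2 and CUC3 are the 3 CUP-SHAPED COTYLEDON genes of Arabidopsis thaliana, and this account describes the peaks of the Polycomb subunit FIE that were listed around them. The members are the loci AT3G15170 (CUC1), AT5G53950 (CUC2) and AT1G76420 (CUC3), 3 of 27444 protein-coding genes on the nuclear chromosomes. A peak was counted for a gene when it overlapped the gene body or the 5 kb on either side by at least 1 bp. By this rule 7 of 6540 wild-type peaks and 1 of 4882 knockdown peaks fell to the CUC genes. The rule names the genes and uses no FIE value, but the genes and the rule were chosen with earlier results of these data known.

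The CUC genes encode NAC-domain transcription factors that are expressed at the boundaries between organs and around the shoot meristem. CUC1 and CUC2 act redundantly, and seedlings that lack both have fused, cup-shaped cotyledons and no shoot meristem. CUC3 shares this role, and the microRNA miR164 cleaves the transcripts of CUC1 and CUC2 but not that of CUC3. FIE is a core subunit of PRC2, the complex that methylates histone H3 at lysine 27 and keeps developmental genes repressed outside the cells that need them.

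Chromatin was taken from plants of the Ws strain at an age of 30 hr, grown without treatment on plates under 16 hr of light and 8 hr of dark. Of the 9 libraries, 3 were anti-FIE immunoprecipitates of the wild type without a transgene, 3 were anti-FIE immunoprecipitates of plants with the RNA interference transgenes pRNAi-BPC and pRNAi-ZnF (the knockdown), and 3 were wild-type input. BPC proteins bind GAGA-type DNA motifs, and the labels do not spell out ZnF, the genes that the transgenes target or the promoters that drive them. Each anti-FIE group had 1 deposited peak list, so no spread between replicates could be computed, and the comparisons below are descriptions of these lists with no test. Knockdown input was not analysed here. The chromatin came from plants and not from sorted boundary cells, so FIE at a gene in fewer cells and less FIE per cell cannot be told apart.

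Both lists held only peaks with a −log10 q above 10, and their depths differed. A summit pileup (the number of fragments over the summit) and a local background were recovered for every peak from the deposited fold and −log10 p. Where a summit of either list lay within 30 bp of one in the other (874 pairs), the ratio of knockdown to wild-type background had a median of 0.471 and quartiles of 0.467 and 0.475. At its lowest background, a site had to reach a pileup of 53 and a fold of 3.02 to be listed in the wild type, and a pileup of 35 and a fold of 4.02 in the knockdown. Where the local background was higher, the pileup needed was higher and the fold needed could be lower. A gene without a listed peak is therefore not one shown to lack FIE.

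The 3 CUC genes differed in how much FIE was listed in the wild type. CUC2 had 4 wild-type peaks that covered 5896 bp of its window, CUC3 had 3 that covered 1484 bp, and CUC1 had 0. In the knockdown, CUC2 and CUC1 had no peak and CUC3 had 1 peak of 112 bp. By the same rule, wild-type peaks were found at 35.7% and knockdown peaks at 18.4% of the protein-coding genes, so having a wild-type peak within 5 kb was common. Among the 9797 genes with a wild-type peak, 80.5% had no knockdown peak in the window. CUC2 is a gene of this kind, and CUC3 belongs to the remainder. The amount of wild-type peak set CUC2 apart from most bound genes, which had a median of 1 peak, 378 bp of peak and a highest fold of 3.36.

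**Figure D1:**
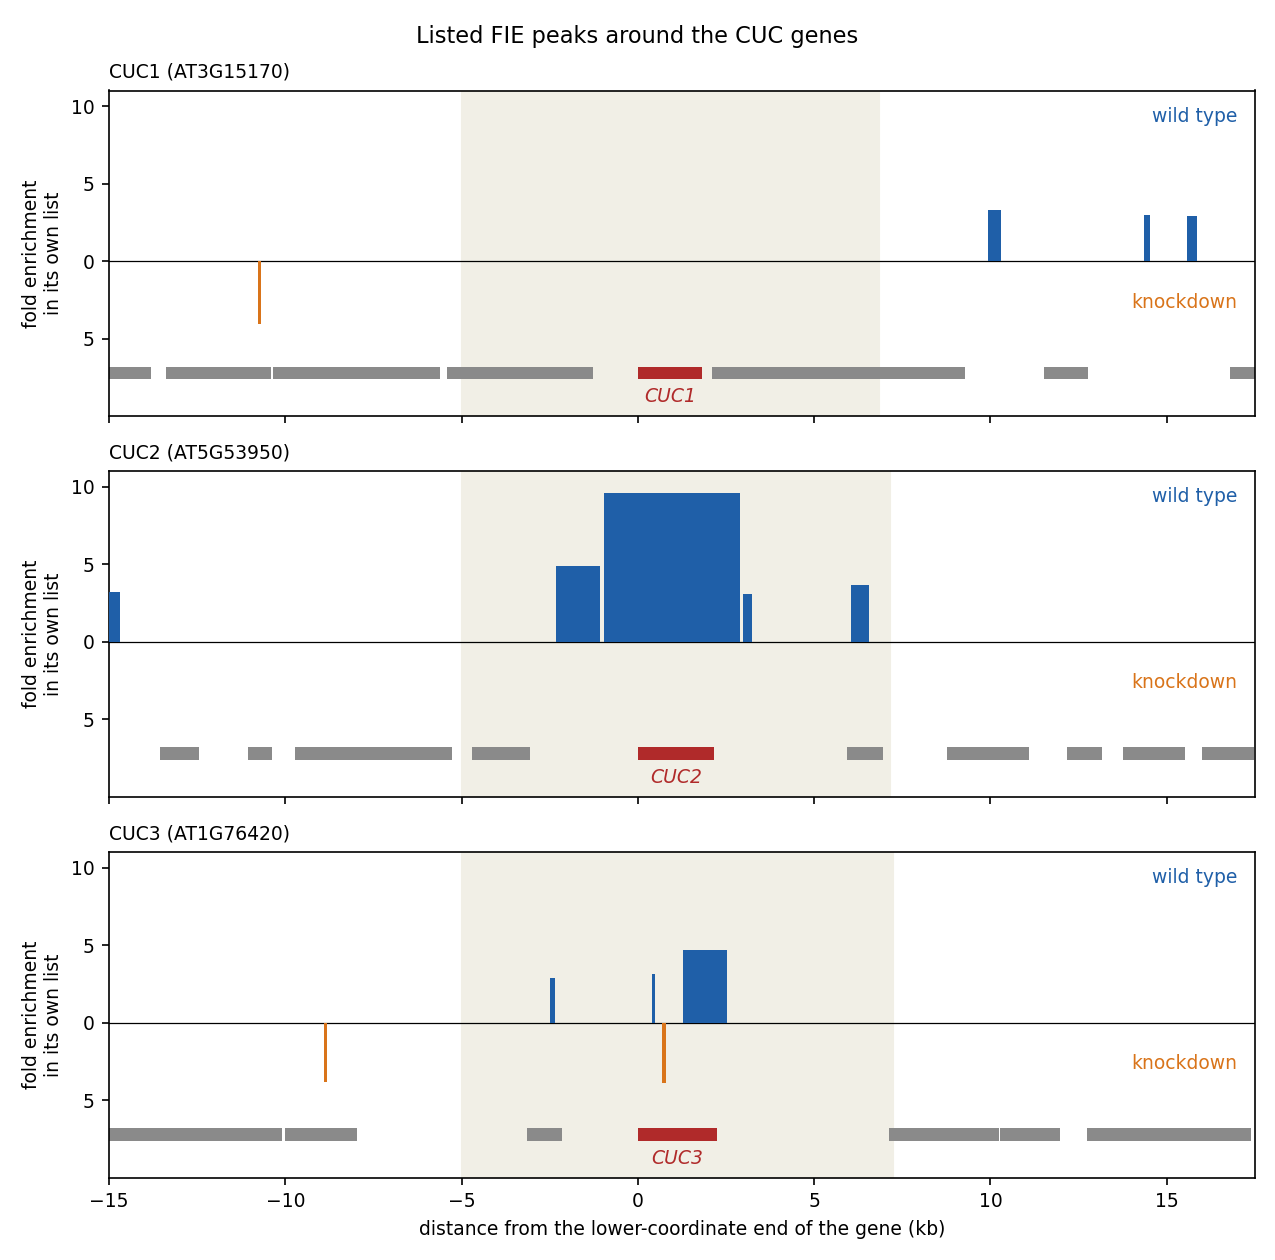
Listed FIE peaks around CUC1, CUC2 and CUC3 by distance from the lower-coordinate end of each gene in kb. Blue bars above the line are wild-type peaks and orange bars below it knockdown peaks, each as wide as the peak (very short peaks are widened to be visible) and as high as its fold enrichment at the summit in its own list; shading marks the gene plus 5 kb, red and gray boxes are the CUC gene and other protein-coding genes. The CUC2 body lies inside 1 wild-type peak, CUC3 has 2 wild-type peaks and 1 knockdown peak on its body, and the CUC1 window is empty.

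CUC2, which marks organ boundaries in the embryo, the shoot and the leaf margin, lay inside a broad wild-type peak. This peak ran from 21900736 to 21904597 on chromosome 5 (TAIR10), was 3862 bp long and had a fold of 9.63 and a −log10 q of 106.8. It covered all 2151 bp of the gene body and extended 968 bp beyond its lower-coordinate end and 743 bp beyond its higher-coordinate end. The summit, at 21902348, lay inside the gene, 644 bp from its lower-coordinate end. By length the peak ranked 17 and by fold 142 of the 6540 wild-type peaks. On the gene body alone, a wild-type peak was listed for 9.94% of protein-coding genes. Whole coverage of the body was found at 103 of the 2727 genes with a wild-type peak on the body (3.78%). Of the 103, 11 were at least as long as CUC2, with CUC2 itself included.

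The other 3 peaks of the CUC2 window flanked this one. On the lower-coordinate side a peak of 1234 bp (21899394 to 21900627) had a fold of 4.92, and on the other side one of 266 bp (21904686 to 21904951) had a fold of 3.09 and a −log10 q of 10.9, just above the list's limit. Gaps of 108 bp and 88 bp separated them from the central peak. Together the 3 peaks spanned 5558 bp, of which 5362 bp was listed as peak. The last peak of the window, 534 bp long with a fold of 3.67 (21907739 to 21908272), began 3885 bp beyond the gene and lay over the neighbouring gene AT5G53960. The summit of the 1234 bp peak was also nearer to another gene, AT5G53940, at 900 bp, than to CUC2, at 2173 bp, although the peak overlapped no annotated gene.

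CUC3, which acts with CUC1 and CUC2 in boundaries and in axillary meristem formation, was covered in part. Its main wild-type peak, 1259 bp on chromosome 1 from 28673078 to 28674336, had a fold of 4.67 and a −log10 q of 29.9. It held 968 bp of the gene body and 291 bp beyond the higher-coordinate end. A short peak of 89 bp (28672197 to 28672285) with a fold of 3.17 lay inside the gene as well, so that 1057 of 2240 bp of the body (47.2%) was covered. The median over genes bound on the body was 16.3%, and 22.4% of them had more of the body covered than CUC3. The remaining peak, 136 bp with a fold of 2.90 (28669319 to 28669454), lay 2352 bp from CUC3 on the neighbouring gene ATL8 and had a −log10 q of 10.7.

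CUC1, the partner of CUC2 in cotyledon separation, had no listed peak on its body or within 5 kb in either list. The nearest wild-type peak was 371 bp long with a fold of 3.29 (chromosome 3, 5119703 to 5120073), 8095 bp from the gene and beyond 3 other protein-coding genes. On the other side the nearest wild-type peak was 71120 bp away. In the knockdown the nearest peak was 76 bp long with a fold of 4.04 (5099006 to 5099081), 10701 bp from CUC1 on AT3G15130. The 81.04 kb between the wild-type peaks on either side of CUC1 held 17 numbers of the wild-type peak numbering that are absent from the list. If the numbers count every call and the absent ones fell below the limit, weaker calls existed in that stretch. The list does not give their positions. For the 5 kb rule, the farthest peak inside a window was that at 3885 bp from CUC2, and the nearest outside one was this peak at 8095 bp from CUC1.

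Set side by side, the highest wild-type fold was 9.63 at CUC2 and 4.67 at CUC3, and no fold was listed for CUC1. The summit pileups behind these values were 175 fragments over a background of 17.3 at CUC2 and 89 fragments over 18.3 at CUC3, so the backgrounds were similar. Among the 9797 genes with a wild-type peak in the window, 24 had more base pairs of peak than CUC2 and 264 had a higher fold. For CUC3 these numbers were 1143 and 1639. Neighbouring genes share peaks in such windows, so these ranks are not over independent genes.

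**Figure D2:**
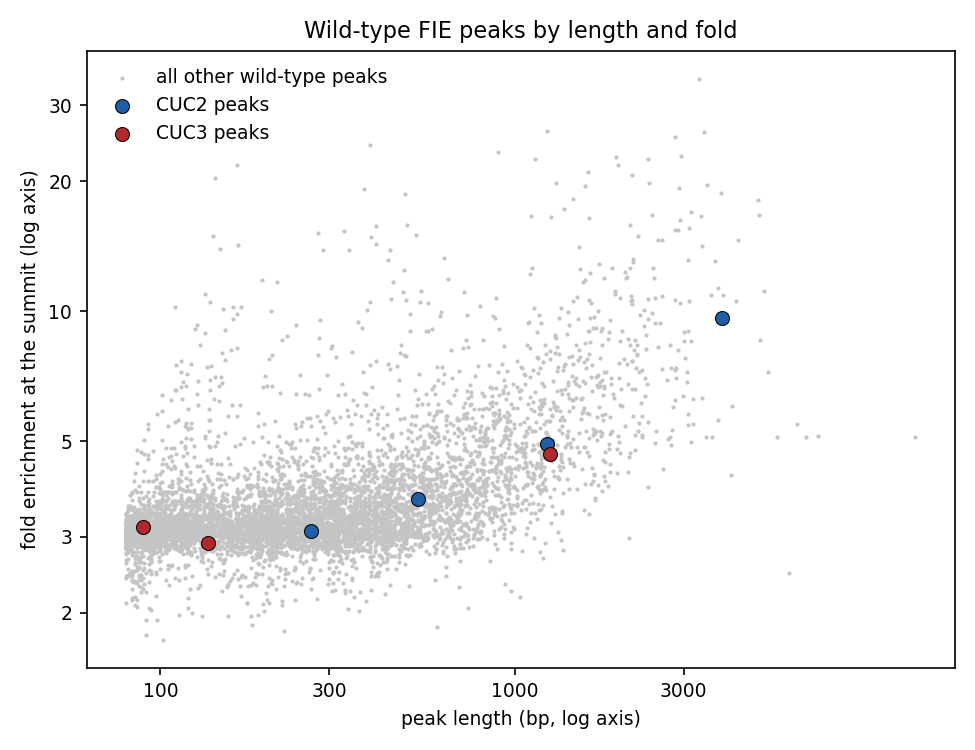
Length in bp and fold enrichment at the summit of all 6540 wild-type FIE peaks, both on log axes, with the peaks of the CUC2 window in blue and those of the CUC3 window in red. The central CUC2 peak, 3862 bp long with a fold of 9.63, stands at the long end of the list; the CUC2 peak of 1234 bp and the CUC3 peak of 1259 bp lie almost on each other, and the remaining 4, of 89 to 534 bp, have folds of 2.90 to 3.67.

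None of the 7 wild-type peaks of the CUC genes overlapped a knockdown peak. Over the whole wild-type list 77.6% of peaks did not. Scaled to the knockdown depth, 3 of the 7 would still have passed the limit of that list at equal occupancy. The central CUC2 peak would have had a pileup of 82.5 (95% binomial interval 70 to 95) where 36 was needed, and a fold of 9.13 where 4.05 was needed. The binomial intervals treat the knockdown fragments as a random draw from the wild-type ones. A separate library counts independently, so its counting spread is wider than these intervals. The 1234 bp CUC2 peak would have had a pileup of 51.9 (42 to 62) where 40 was needed.

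At CUC3 the margin was smaller. Its main peak would have had a pileup of 42.0 (33 to 51) where 37 was needed, which gave it a binomial probability of 0.877 of being listed. This probability rests on the same draw and is likewise overconfident for a separate library. The other 4 peaks, 2 at each gene, had expected pileups of 25.9 to 33.0 where 36 to 40 was needed. Their binomial probabilities of being listed were 0.00403 to 0.201, so their absence says little about a loss at this depth. By these binomial probabilities, summed over the 7 peaks, 3.11 were expected to be listed at equal occupancy. Of these, 2.20 were at CUC2 and 0.916 at CUC3, and 0 were listed. Among all wild-type peaks that would pass at the knockdown depth, 58.1% did not overlap a knockdown peak. Such a peak stood in the window of 9.4% and on the body of 2.71% of protein-coding genes, and of these genes 79.1% and 90.1% had no knockdown peak in the same region. The absence of a knockdown peak at CUC2 was thus what most bound genes showed.

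**Figure D3:**
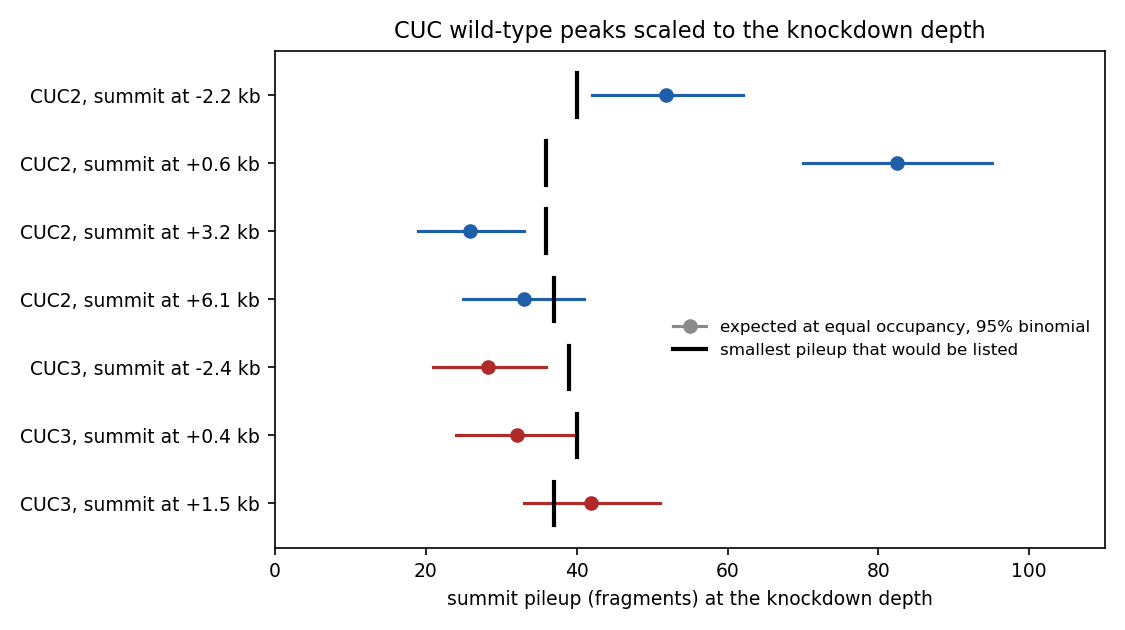
The 7 wild-type peaks of the CUC2 (blue) and CUC3 (red) windows, named by the distance of the summit from the lower-coordinate end of the gene, with the summit pileup in fragments expected at the knockdown depth if occupancy were equal (points) and the smallest pileup that the knockdown list would hold (black marks). Lines are 95% binomial intervals for a random draw from the wild-type fragments, narrower than the counting spread of a separate library. The interval lies above the mark for 2 CUC2 peaks. It includes the mark for the main CUC3 peak, the CUC2 peak of 534 bp and, at its upper end, the CUC3 peak of 89 bp, and it lies below the mark for the other two.

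The knockdown peak at CUC3 did not lie on a wild-type peak. It covered 112 bp of the gene body (28672488 to 28672599, 5% of the body) between the 2 wild-type peaks on the gene, 202 bp from the shorter and 478 bp from the longer. Its fold was 3.89 and its −log10 q 10.4, which placed it at rank 4342 of 4882 by fold. It had a summit pileup of 38 over a background of 9.01. At the wild-type depth this would be a pileup of 80.6, where 57 was needed for the wild-type list. No counting interval was computed for this value, which was scaled up from 38 fragments of a peak just above the limit of its list. In the whole knockdown list 72.3% of peaks overlapped no wild-type peak. A knockdown peak on the gene body was less common, at 4.39% of protein-coding genes, and 92.4% of the genes with a wild-type peak on the body had none there.

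The peak numbering gave a further view of CUC3, since numbers rose along the chromosomes in both lists and some numbers were absent. The absent numbers are read here as weaker calls. Between the 2 wild-type peaks on the CUC3 body, a gap of 792 bp, no number was missing, so the wild-type numbering held no weaker call where the knockdown peak lay. In the knockdown no number was missing in the 9499 bp below that peak either, and this stretch held the short wild-type CUC3 peak and the ATL8 peak. The main CUC3 peak lay in a knockdown stretch of 108.9 kb with 26 missing numbers. For CUC2, 27 numbers were missing in the 121.5 kb between its neighbouring knockdown peaks, so a weaker knockdown call at either gene could not be placed. This reading assumes that the numbers count every call of the peak caller and that calls are absent only for being weaker. Neither was tested.

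The lists of related genes below were chosen with earlier results of these data known, so their shares are descriptions only. Of 12 other boundary genes, 11 had a wild-type peak within 5 kb (91.7%, against 35.7% over the protein-coding genes) and 1 had a knockdown peak (8.33%, against 18.4%). Of the 11, 8 had a wild-type peak that would pass at the knockdown depth. Of such genes in general, 79.1% had no knockdown peak. None of the 11 had a knockdown peak, and 80.5% of wild-type-bound genes in general had none. Their highest folds were 19.6 at BOP1, which patterns the leaf base, 10.9 at LAS, a GRAS gene needed for axillary meristems, and 9.80 at JLO, a LOB-domain gene. LAS had 5456 bp of wild-type peak and BOP1 had 5525 bp, near the 5896 bp of CUC2. RAX3, a MYB gene of axillary meristem formation, was the exception, with no wild-type peak and a knockdown peak of 78 bp on its body with a fold of 4.36.

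All 6 meristem genes had a wild-type peak in their window, against 35.7% over the protein-coding genes, and 5 had one on the body. ATH1 had only 1 peak of 80 bp with a fold of 2.97, off the body. KNAT2 had only 1 of 461 bp with a fold of 3.10. A peak that would pass at the knockdown depth stood at 4 of the 6. Of such genes in general, 79.1% had no knockdown peak. None of the 6 had a knockdown peak, and 80.5% of wild-type-bound genes in general had none. Among them STM, the homeobox gene that the CUC genes activate in the embryo, had 5137 bp of wild-type peak and a highest fold of 26.1 in the window and 8.51 on its body. WUS, the stem cell regulator, had 5922 bp and folds of 22.5 and 8.34. KNAT1 followed with a fold of 7.41.

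Genes with known effects on CUC expression or boundary formation were a mixed group. Of 16, 12 had a wild-type peak (75%, against 35.7% over the protein-coding genes) and 3 a knockdown peak (18.8%, against 18.4%). The highest wild-type folds were 14.1 at TCP2, one of the TCP factors that restrain CUC activity in leaves, 9.01 at DRNL, an AP2/ERF gene of organ founder cells, and 7.27 at BRM, which encodes a chromatin remodelling ATPase. At MP, the auxin response factor of embryo patterning, 528 bp in the wild type and 637 bp in the knockdown were listed, and these overlapped. SYD, a second remodelling ATPase gene, had 180 bp and 188 bp that did not overlap. TCP3 had knockdown peak alone, 253 bp at 3808 bp from the gene, and TCP4, PID and SPT had no peak in either list.

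None of the 3 miR164 genes MIR164A, MIR164B and MIR164C had a wild-type peak in its window. With wild-type peaks at 35.7% of protein-coding genes, an empty window was the more common state in that class. No share over microRNA genes was computed. MIR164B had a knockdown peak of 130 bp with a fold of 4.10, 2731 bp away. Among 4 other NAC genes whose transcripts miR164 targets, NAC079/080 had a wild-type peak, of 415 bp with a fold of 3.08, and a knockdown peak of 105 bp that did not overlap it. ORE1, a regulator of leaf senescence, had 405 bp of knockdown peak alone, and NAC1 and NAC100 had no peak. Knockdown peaks were thus found at 2 of these 4 genes and 1 of the 3 miR164 genes, against 18.4% of protein-coding genes. Of the miR164 targets in the CUC family, CUC1 had an empty window and CUC2 did not.

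**Figure D4:**
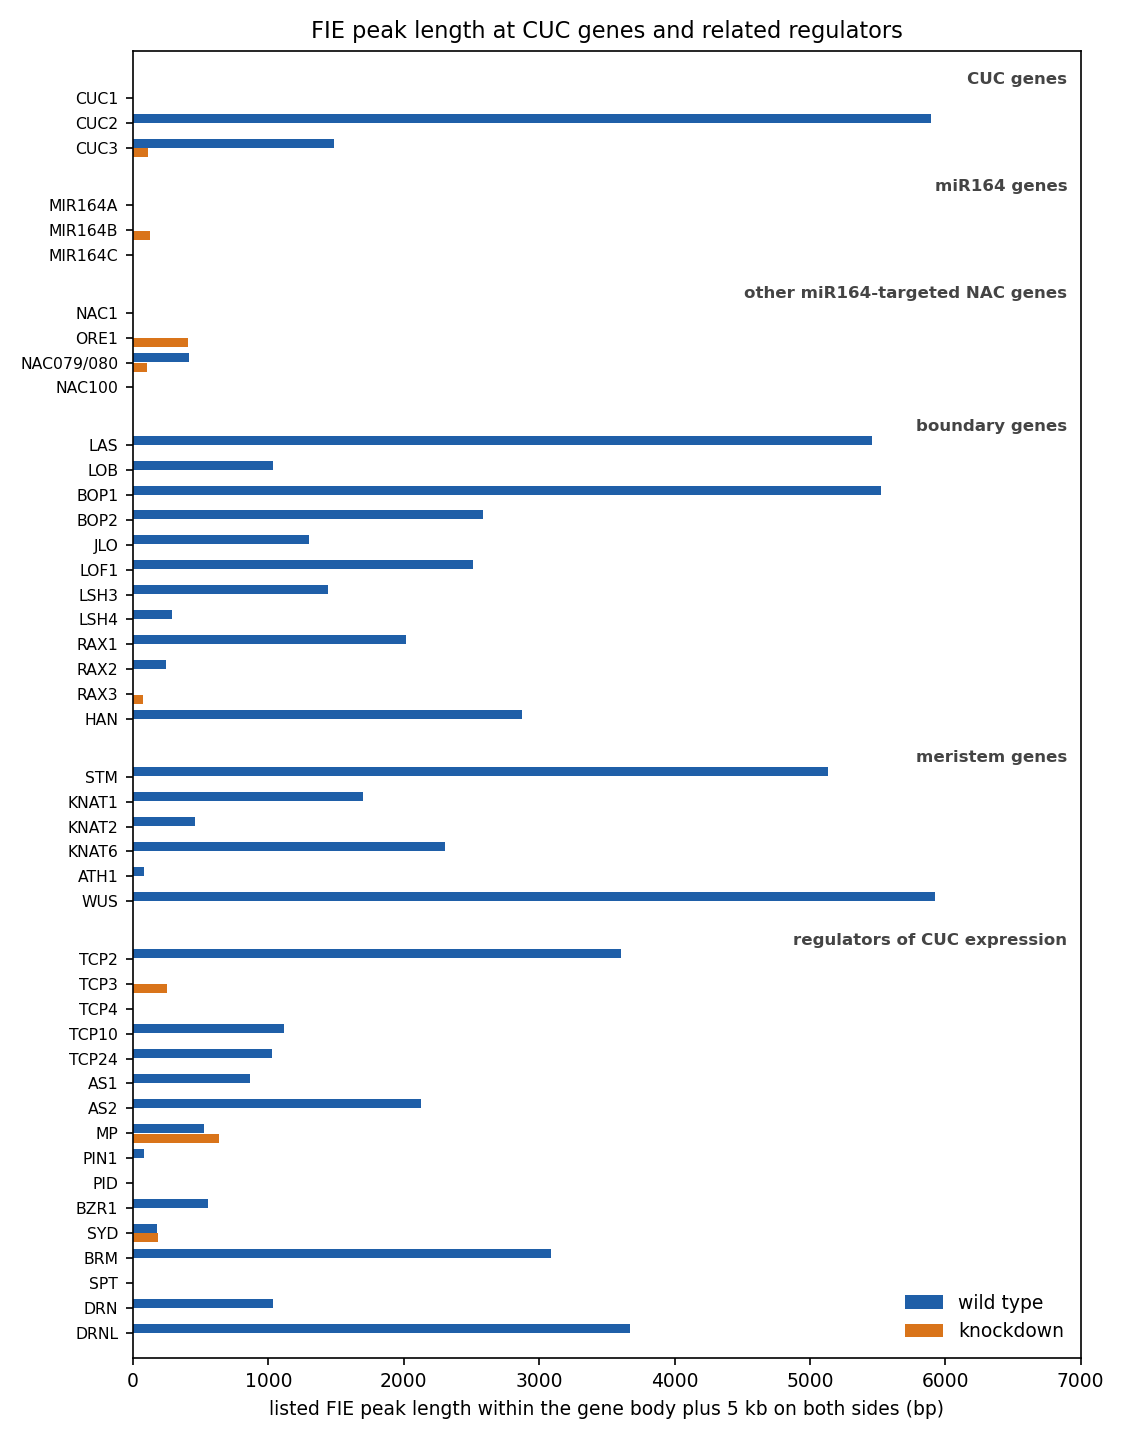
Base pairs of listed FIE peak within the gene body plus 5 kb on both sides for the CUC genes and 5 lists of related genes, in the wild type (blue) and the knockdown (orange). CUC2, with 5896 bp, LAS, BOP1, STM and WUS have more than 5000 bp in the wild type and no knockdown peak, and CUC1 has none in either list.

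Among the genes that the gene table describes as NAC, which may not be the whole family, CUC2 held the most wild-type peak. Of the 94 others, 39 had a wild-type peak in the window (41.5%, against 35.7% of protein-coding genes as a whole). A knockdown peak was found at 14 (14.9%, against 18.4%), and 9 had both. The other 30 of the 39 had no knockdown peak, where 80.5% of wild-type-bound genes in general had none. None of the 94 had more base pairs of wild-type peak than CUC2, and 2 had a higher fold, namely NST1 at 9.99 and NAC067 at 9.96. NST1 controls secondary wall formation. NAC075 came next among the other NAC genes at 9.38. For CUC3, 12 of the 94 had more base pairs and 10 a higher fold.

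The 9 other NAC genes with peaks in both lists were ATAF1, NAC028, NAC048, NAC049, NAC067, NAC070, NAC080, NAC086 and NAC099, and a knockdown peak overlapped a wild-type peak at ATAF1 and NAC067. Non-overlap was also the rule in the whole knockdown list, at 72.3% of peaks. NAC004, NAC005, NAC063, NAC085 and ORE1 had a knockdown peak alone. The same knockdown length and fold were found at NAC004 and NAC005 (72 bp, 4.25) and at NAC048 and NAC049 (173 bp, 3.96). Neighbouring genes thus shared peaks, and these counts are not over independent genes. The NAC genes nearest to CUC3, the median member, in base pairs of wild-type peak were NAC084 (1525 bp, fold 5.22), NAC105 (1370 bp, fold 3.80) and NAC076 (1888 bp, fold 7.81). None of these 3 had a knockdown peak, and neither did 80.5% of wild-type-bound genes in general.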

How the data were processed

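The authors deposited 1 peak list in narrowPeak layout for each anti-FIE group. Each row gives the authors' score, their fold enrichment ratio at the summit and a −log10 of the p-value and q-value; the deposited score was the −log10 q multiplied by 10 without its decimals. Bowtie2, bedtools, MACS2 2.1.0.20151222 and TAIR10 are named in the submitters' processing notes, without their roles. The use of replicates and input in each list is not stated there. The list whose name the labels do not spell out was taken as the knockdown, the remaining anti-FIE group.

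Gene positions came from a RefSeq table of TAIR10.1, whose nuclear sequences were taken to equal TAIR10. It gives no strand or exons, so sides are named by coordinate. Printed coordinates are those of the peaks. No genome sequence was used here.

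Pileup and background were solved from fold (pseudocount 1) and the Poisson −log10 p (largest misfit 7.27e-04), a method tested on simulated data. The depth of single libraries is unknown; the ratio of backgrounds was taken as the ratio of depths. Analyses used Python 3.11.15 and scipy 1.17.1. All 41 genes of 5 lists were matched by locus code, and NAC genes by description. The CUC genes, the lists and the rules were chosen with earlier results of these data known. Named were the CUC genes with every peak and, from each list, genes with peaks in both lists or in the knockdown alone and up to 3 with the highest wild-type fold. Alternatives changed the flank, the threshold, the summit rule, the overlap and the depth filter.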

Additional observations from a re-analysis of the deposited data

How the results depend on the processing

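CUC1 had no peak in either list with flanks of 0, 1 or 2 kb and 1 wild-type peak with 10 kb. The 7 wild-type CUC peaks became 3 on the gene body alone, 4 with 1 kb, 4 when the summit had to be nearest to the CUC gene and 3 with a −log10 q of at least 20, and all of these lacked an overlapping knockdown peak. The number without an overlapping knockdown peak was thus 3, 4, 4 and 3 in turn, and it was 3 among peaks that would pass at the knockdown depth. The 1 knockdown peak became 2 with 10 kb and 0 at the stricter q, where the CUC3 peak was lost. The share of protein-coding genes with a wild-type peak was 9.94%, 15.7%, 21.3% and 53.9% with flanks of 0, 1, 2 and 10 kb and 11.3% at the stricter q. For knockdown peaks it was 4.39%, 7.11%, 9.99% and 30.3%, and 1.4% at the stricter q. The share of wild-type-bound genes without a knockdown peak ranged from 69.5% to 95%.

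No paired analysis was possible because each list stands for a whole group and carries no replicate numbers. Leaving out a replicate was not run for the same reason. The scaling between depths takes occupancy and fragment length as equal in both lists.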
